A study of Mus musculus with 12 samples.

Results

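Livers of mice on a Western diet with sugar water were compared with livers of mice on chow with normal water, where mice of both diets carried the vector labelled siAATF. The members are the 6 libraries so labelled, 3 of Western siAATF and 3 of chow siAATF, of 12 libraries in the series, and every gene of the deposited count table was considered. The other 6 libraries, 3 of Western null and 3 of chow null, carry the empty vector and are used to set the same diet contrast beside this one. All mice were wild-type C57Bl/6NCrl males that started their diet at 6 weeks of age. After 12 weeks of diet each received AAV8 particles by tail vein, and livers were taken a further 12 weeks later. The vector was AAV8-TBG-siAATF in the Western siAATF and chow siAATF mice and AAV8-TBG-Null in the Western null and chow null mice. TBG is a promoter active in hepatocytes, so the silencing sequence was directed to that cell type and not to the other cells of the liver. Whether the 3 numbered replicates of a group are 3 mice is not said in the labels. The p-values below measure only the spread between samples within groups, which may be technical. That spread was estimated over all 12 libraries, the 6 null libraries included.

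A Western diet with sugar fills hepatocytes with fat, and prolonged feeding leads to steatohepatitis, a state in which macrophages gather around dying fat-laden cells and stellate cells lay down collagen. Excess cholesterol is known to turn down sterol synthesis through SREBP2, and pulses of growth hormone give the male mouse liver its sex-biased pattern of genes. Liver genes also follow a daily clock, in which Arntl (BMAL1) and Clock drive the Per and Nr1d1 genes, whose products feed back on them. Aatf, whose silencing the vector was meant to achieve, encodes a nucleolar protein with roles in ribosome production and in survival under stress.

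The deposited values are whole-number counts of reads per gene on the mouse build GRCm39, from a SMART-Seq library kit. Libraries held 1989409 to 7614183 counts for Western siAATF and 4200079 to 13469819 for chow siAATF. Levels below are given in CPM, that is read counts scaled for library size, always in the order of libraries 1, 2 and 3. They do not correct for gene length, so they compare libraries and not genes. Counts on the gene of 18S ribosomal RNA made up 19.8%, 50.8% and 0.871% of Western siAATF libraries, against 41.4%, 1.54% and 4.25% of chow siAATF libraries. The 6 hepatocyte markers used to check the labelled tissue, Alb and Apoa1 among them, summed to 47977, 50009 and 41313 CPM in Western siAATF livers and 70778, 68753 and 69887 CPM in chow siAATF livers.

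Aatf itself (chromosome 11, 84313682 to 84404433, minus strand) was counted at 27.0, 27.5 and 28.2 CPM in Western siAATF livers, against 39.2, 24.6 and 40.5 CPM in chow siAATF livers. The chow siAATF values lie on both sides of the Western siAATF ones. The log2 fold change was -0.33 ± 0.25 (standard error), with a 95% interval of -0.85 to 0.19, and did not pass the quasi-likelihood test of edgeR, adjusted over all tested genes after Benjamini and Hochberg (edgeR adjusted p = 0.581). The libraries with the empty vector gave 27.6, 21.1 and 30.0 CPM for Western null and 36.8, 26.5 and 31.6 CPM for chow null. The libraries labelled siAATF therefore cover the same range of Aatf as those labelled null, and "siAATF" below names the vector on the label, not a measured loss of Aatf RNA.

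The 3 Western siAATF libraries did not resemble each other as closely as the 3 chow siAATF libraries did. Across genes, each library was correlated (Spearman) with the other libraries of its group, and the values were averaged. The mean was 0.922, 0.899 and 0.886 for Western siAATF libraries, against 0.959, 0.968 and 0.969 for chow siAATF libraries. Western siAATF libraries 1 and 2 carried a strong acute phase response, the set of secreted proteins that hepatocytes make on inflammatory signals, and library 3 did not. Saa1, which encodes serum amyloid A, stood at 8506, 5138 and 61.2 CPM in Western siAATF livers and at 45.0, 107 and 310.4 CPM in chow siAATF livers. Lcn2, which encodes an iron-scavenging lipocalin, stood at 684, 634 and 10.6 CPM in Western siAATF livers and at 1.59, 7.63 and 62.9 CPM in chow siAATF livers.

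Western siAATF library 3 instead stood apart in genes that PPAR alpha, the fatty acid sensor of hepatocytes, is known to drive. Ehhadh, an enzyme of peroxisomal fatty acid oxidation, was at 151, 171 and 8144 CPM in Western siAATF livers, against 403, 294 and 279 CPM in chow siAATF livers. Acot1, an acyl-CoA thioesterase, was at 7.74, 2.04 and 792 CPM in Western siAATF livers, against 29.1, 29.9 and 23.6 CPM in chow siAATF livers. Libraries 1 and 2 lay below every chow siAATF library for both genes, and library 3 lay far above. Western siAATF library 1 also held by far the most muscle transcripts. Ttn, the giant sarcomere protein, was at 2427, 8.85 and 5.72 CPM in Western siAATF livers and at 1.32, 0.616 and 1.05 CPM in chow siAATF livers. Western siAATF libraries 2 and 3 thus also lay above each chow siAATF library for Ttn.

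**Figure D1:**
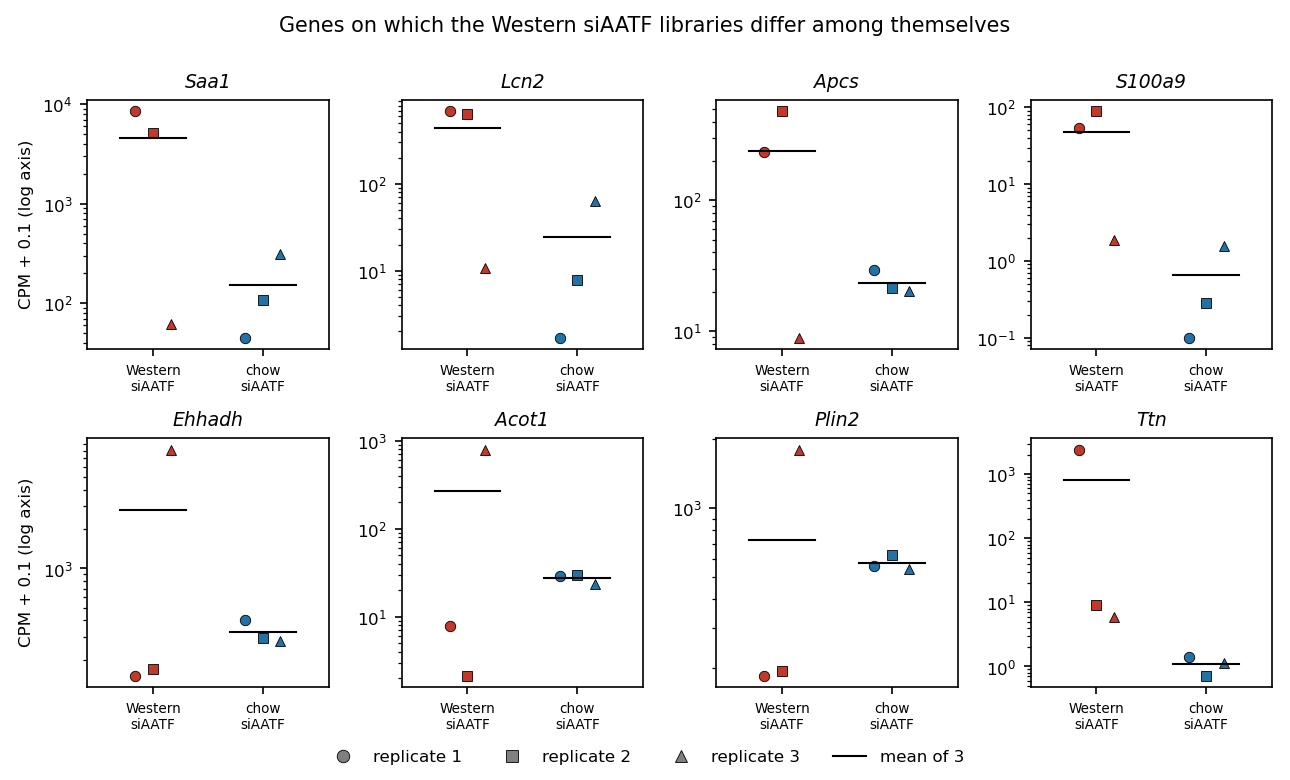
Levels as CPM plus 0.1 (log axis) of 8 genes in the 3 Western siAATF libraries (left in each panel) and the 3 chow siAATF libraries (right), with 1 point per library, its shape giving the replicate, and a line at the mean of 3. Saa1, Lcn2, Apcs and S100a9 are high in Western siAATF libraries 1 and 2, Ehhadh, Acot1 and Plin2 in library 3, and Ttn in library 1.

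Of 11934 genes with enough counts to be tested, 177 (1.48%) differed between Western siAATF and chow siAATF at an adjusted p under 0.05 and are termed called below. Of these, 91 rose (0.763% of tested genes) and 86 fell (0.721%) on the Western diet, and 1812 genes had an unadjusted p under 0.05. The median log2 fold change of all tested genes was 0.04, with 6420 positive and 5514 negative estimates. For 170 of the 177 genes the 3 Western siAATF libraries did not overlap the 3 chow siAATF libraries, and 166 changed by at least 1 on the log2 scale. Predicted gene models, which carry no gene name, made up 11 of them, and 10 are overlapped by another gene over more than 25% of their span. Over all tested genes, 9.24% did not overlap and were higher in Western siAATF, and 8.36% did not overlap and were lower. The counts of list members below stand beside these shares and the 0.763% and 0.721% that were called.

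How many genes were called depended on which library was in the fit. Without Western siAATF library 3, 737 genes were called, 174 of the 177 among them. Without Western siAATF library 1 there were 69, without chow siAATF library 1 98, without chow siAATF library 2 34 and without chow siAATF library 3 69, and without Western siAATF library 2 there were 146. Of the 64 called genes named in the text under the rule for named genes, 12 were called in each of these 6 fits: Aox3, Apoa4, Cd63, Cdh1, Etnppl, Gsta4, Ly6d, Pitx3, Rad51b, Usp2, Wee1 and Wnk4. The other 52 lost the call in at least 1 of them, although none turned direction. Each of these fits also holds the null libraries, which share the estimate of the spread. With the siAATF libraries fitted alone, 17 genes were called, and Aox3, Cd63, Gsta4, Wee1 and Wnk4 lost the call.

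**Figure D2:**
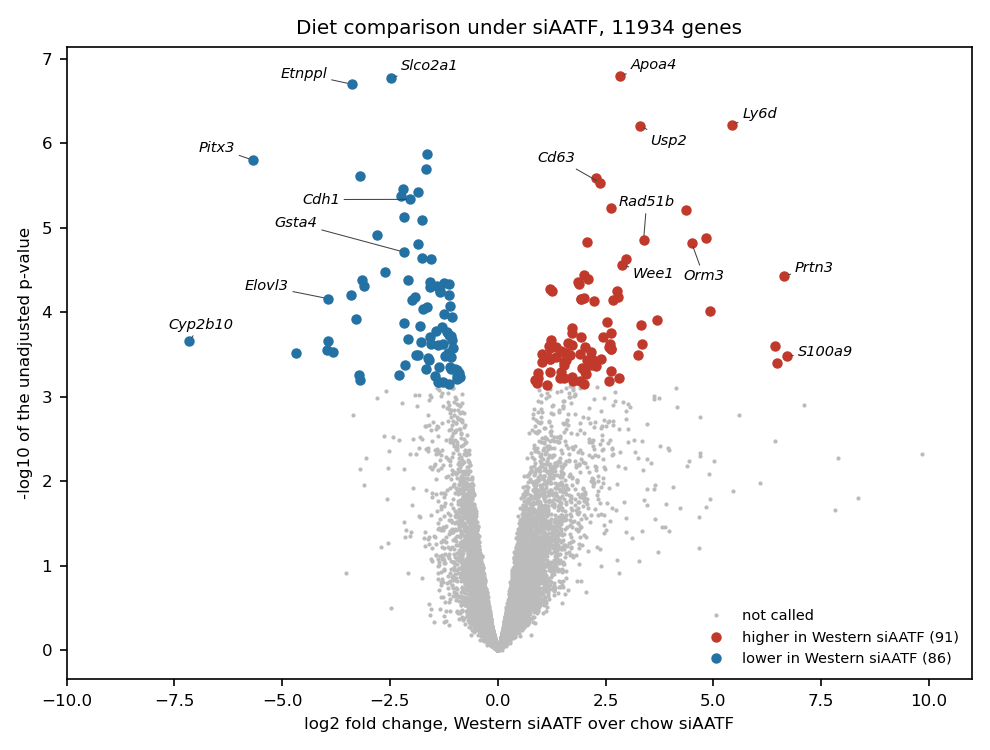
Log2 fold change of Western siAATF over chow siAATF (horizontal) against -log10 of the unadjusted p (vertical) for the 11934 tested genes, 1 point per gene. The 91 genes called higher are red and the 86 called lower are blue, with some named; Apoa4, Slco2a1 and Etnppl stand at the top.

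Among genes of lipid handling, the rise with the lowest adjusted p was in Apoa4 (chromosome 9, 46152142 to 46154756, plus strand), an apolipoprotein that fat-laden mouse liver secretes. It stood at 1850.3, 1137 and 1147 CPM in Western siAATF livers and 234, 162 and 183 CPM in chow siAATF livers. All 3 Western siAATF libraries were several times above the highest chow siAATF library, and library 3 was no exception. The log2 fold change was 2.84 ± 0.33 (edgeR adjusted p = 0.000795). It was the only called gene among 14 tested apolipoprotein and lipoprotein assembly genes, whose median log2 fold change was -0.03, and it remained called in each of the 6 fits without a library.

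Fatty acid uptake genes gave 2 called members of 13, both higher. Cd36, a fatty acid transporter of the cell surface, was at 83.8, 103 and 366 CPM in Western siAATF livers and 33.3, 39.2 and 15.5 CPM in chow siAATF livers (log2 fold change 2.63 ± 0.51, edgeR adjusted p = 0.0269). Fabp4, a fatty acid binding protein of adipocytes and macrophages, was at 11.1, 6.81 and 25.1 CPM in Western siAATF livers and 2.65, 1.66 and 2.51 CPM in chow siAATF livers (2.67 ± 0.51, edgeR adjusted p = 0.0145). For both genes the groups were apart, and library 3 was the highest of the Western siAATF libraries. Without that library the log2 fold change of Cd36 was 1.62. The Cd36 call was lost without any 1 of the chow siAATF libraries, and the Fabp4 call without chow siAATF library 2 or 3.

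Fatty acid and triglyceride synthesis gave 1 gene higher and 1 lower of 22. Thrsp, a nuclear protein that promotes lipogenesis, was at 155, 148 and 41.4 CPM in Western siAATF livers, against 12.2, 41.1 and 15.9 CPM in chow siAATF livers. It rose by 2.29 ± 0.50 on the log2 scale (edgeR adjusted p = 0.0375), with Western siAATF library 3 level with chow siAATF library 2, and lost its call without Western siAATF library 1 or 2 or chow siAATF library 1 or 3. Fads1, the delta-5 desaturase of polyunsaturated fatty acids, was at 167, 161 and 151 CPM in Western siAATF livers and 331, 325 and 299 CPM in chow siAATF livers. The fall in Fads1, -0.99 ± 0.23 (edgeR adjusted p = 0.0386), was even within each group, yet it was called only without Western siAATF library 3 among the 6 fits. Scd1, the delta-9 desaturase, did not pass the test at 5479, 6413 and 10401 CPM in Western siAATF livers and 5144, 4060.3 and 2107 CPM in chow siAATF livers (0.98 ± 0.37, edgeR adjusted p = 0.212). Neither did Fasn, the fatty acid synthase (0.40 ± 0.38, edgeR adjusted p = 0.678), nor Srebf1, which drives both (1.07 ± 0.35, edgeR adjusted p = 0.142).

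Sterol synthesis lay lower as a group, with 21 of 23 tested genes at a negative estimate and a median log2 fold change of -0.92, but only Hmgcs1 was called. Hmgcs1, which makes the precursor of mevalonate, was at 40.5, 53.8 and 102 CPM in Western siAATF livers, against 104, 224 and 204 CPM in chow siAATF livers (-1.45 ± 0.34, edgeR adjusted p = 0.0436). Western siAATF library 3 came close to chow siAATF library 1, and 13 of the 23 genes had an unadjusted p under 0.05. The number called was 6 without chow siAATF library 1, 5 without Western siAATF library 3 and 0 without any 1 of the other 4 libraries. Of 11 genes of sterol efflux, Abcg1 rose, an exporter of cholesterol to HDL, at 25, 19.1 and 35.2 CPM in Western siAATF livers against 3.97, 8.74 and 10.7 CPM in chow siAATF livers (1.72 ± 0.35, edgeR adjusted p = 0.025). That call was lost without Western siAATF library 1, chow siAATF library 1 or chow siAATF library 2.

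Cyp7a1, the rate-limiting enzyme of bile acid synthesis from cholesterol, was the 1 called gene of 18 in bile acid synthesis and transport. It was at 64.4, 119 and 33.0 CPM in Western siAATF livers and 27.3, 14.0 and 14.2 CPM in chow siAATF livers. The lowest Western siAATF library, library 3, was just above the highest chow siAATF library. The log2 fold change was 1.99 ± 0.38 (edgeR adjusted p = 0.0145), and the call was lost without chow siAATF library 2 or 3.

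Lipid droplet proteins and PPAR alpha targets gave no called gene under edgeR, among 14 and 26 tested members. Unadjusted p fell under 0.05 for 4 and 8 of them, all higher, DESeq2 called 0 and 1, and limma-voom called 0 of either. Their values were split by library. Plin2, a coat protein of lipid droplets, was at 186, 195 and 1805 CPM in Western siAATF livers and 559, 622 and 541 CPM in chow siAATF livers (0.34 ± 0.71, edgeR adjusted p = 0.876). Libraries 1 and 2 were below all chow siAATF libraries and library 3 was above them, and without library 3 the estimate was -1.63 (edgeR adjusted p = 0.00088). Cidec, which fuses lipid droplets, was at 5.97, 12.3 and 131 CPM in Western siAATF livers and 4.23, 9.17 and 4.39 CPM in chow siAATF livers (2.94 ± 1.02, edgeR adjusted p = 0.212), and without library 3 its estimate was 0.48.

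Clock genes moved in both directions. Of 20 tested, 4 rose (Usp2, Wee1, Per3 and Per2) and 1 fell (Arntl), against 0.763% and 0.721% of all tested genes. The groups did not overlap for 8 members that were higher and 3 that were lower, against 9.24% and 8.36% of all tested genes. The promoters of the called genes were searched because Per3 and Arntl, which moved in opposite directions, lie on opposite arms of the clock. Windows of 300 bases, from 250 before to 50 after the transcription start, were taken from RefSeq on the build GRCm38.p6 for the 3 of 5 called clock genes that matched. Per2 and Wee1 are not among them. Each window was searched on both strands for the E-box CACGTG, bound by Arntl with Clock, for the D-box TTATGTAA or TTATGCAA, bound by Dbp and Tef, and for the core of the ROR element, TAGGTCA or TGGGTCA, bound by Nr1d1 and the ROR receptors. The Per3 window, chr4:151044616-151044915 on the minus strand, held 2 D-boxes. Of the 2 Arntl windows, that at chr7:113207261-113207560 on the plus strand held 1 ROR element core, and the other held no match. The Usp2 window held none of the motifs. Only the windows with a match are printed below, so they were picked for the match. Matches are in capitals and do not overlap each other.
Per3: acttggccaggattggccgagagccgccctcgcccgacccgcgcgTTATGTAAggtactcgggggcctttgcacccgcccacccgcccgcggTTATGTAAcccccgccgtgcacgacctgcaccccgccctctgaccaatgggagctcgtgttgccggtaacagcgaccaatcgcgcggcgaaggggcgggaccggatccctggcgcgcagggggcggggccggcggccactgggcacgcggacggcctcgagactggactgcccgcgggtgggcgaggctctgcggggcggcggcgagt
Arntl: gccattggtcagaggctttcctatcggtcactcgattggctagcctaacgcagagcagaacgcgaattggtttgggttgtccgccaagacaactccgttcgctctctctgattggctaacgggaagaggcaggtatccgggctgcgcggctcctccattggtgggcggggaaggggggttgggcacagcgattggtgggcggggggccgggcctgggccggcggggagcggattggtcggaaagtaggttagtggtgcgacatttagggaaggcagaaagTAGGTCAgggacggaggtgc
Among 32851 promoter windows of the same length, 7.15% held the E-box, 1.66% a D-box and 6.45% an ROR element core. A match describes the letters of the window and not binding.

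The Western siAATF libraries lay close to each other for the called clock genes. Usp2, a deubiquitinase with daily rhythm, was at 22.3, 22.2 and 16.7 CPM in Western siAATF livers and 1.32, 3.32 and 0.627 CPM in chow siAATF livers. Wee1, a kinase that delays mitosis and is driven by the clock, was at 7.30, 7.26 and 11 CPM in Western siAATF livers and 0.265, 1.79 and 0.627 CPM in chow siAATF livers. Neither gene's groups came close to overlapping, with log2 fold changes of 3.30 ± 0.42 for Usp2 (edgeR adjusted p = 0.00148) and 2.89 ± 0.51 for Wee1 (edgeR adjusted p = 0.011), and both stayed called in each of the 6 fits without a library. The annotated span of Usp2 is overlapped over 65.7% by Gm39325. Reads that fell on both genes appear to count for neither, as genes inside another gene are all at 0.

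Per3, a period protein that represses the clock, was at 25.9, 22.2 and 27.3 CPM in Western siAATF livers and 3.17, 10.2 and 5.02 CPM in chow siAATF livers (1.93 ± 0.37, edgeR adjusted p = 0.0145). Per2, a core repressor of the same family, was at 27.4, 22.2 and 25.5 CPM in Western siAATF livers and 1.59, 9.36 and 6.48 CPM in chow siAATF livers (2.01 ± 0.48, edgeR adjusted p = 0.0476). The Western siAATF libraries lie within a narrow band for both genes, and the chow siAATF libraries span a wider one, with library 2 the highest. Arntl, the positive arm of the loop and the gene with the ROR element core above, was at 7.08, 5.67 and 6.16 CPM in Western siAATF livers, against 42.1, 10.6 and 17.8 CPM in chow siAATF livers (-1.86 ± 0.41, edgeR adjusted p = 0.0323). The Per3 call was lost without Western siAATF library 1 or chow siAATF library 1 or 3, that of Arntl without Western siAATF library 1 or 2 or chow siAATF library 1, and that of Per2 without any compared library other than Western siAATF library 3.

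Other members did not pass the test. Dbp, an output factor that binds the D-box, was at 72.8, 30.9 and 119 CPM in Western siAATF livers and 2.12, 26.5 and 13.4 CPM in chow siAATF livers (2.32 ± 0.67, edgeR adjusted p = 0.12). Clock, the partner of Arntl, was at 22.3, 39.0 and 24.6 CPM in Western siAATF livers and 65.6, 61.7 and 51.0 CPM in chow siAATF livers (-1.05 ± 0.31, edgeR adjusted p = 0.1). Nr1d1, the REV-ERB alpha repressor, overlapped widely at 39.6, 25 and 99.0 CPM in Western siAATF livers and 29.4, 100.4 and 75.9 CPM in chow siAATF livers (-0.36 ± 0.46, edgeR adjusted p = 0.775). Under the empty vector the estimates of the called genes had the same signs, at 4.88 for Usp2, 4.58 for Wee1, 2.58 for Per3, 3.00 for Per2 and -3.11 for Arntl. The labels do not give the hour at which livers were taken.

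**Figure D3:**
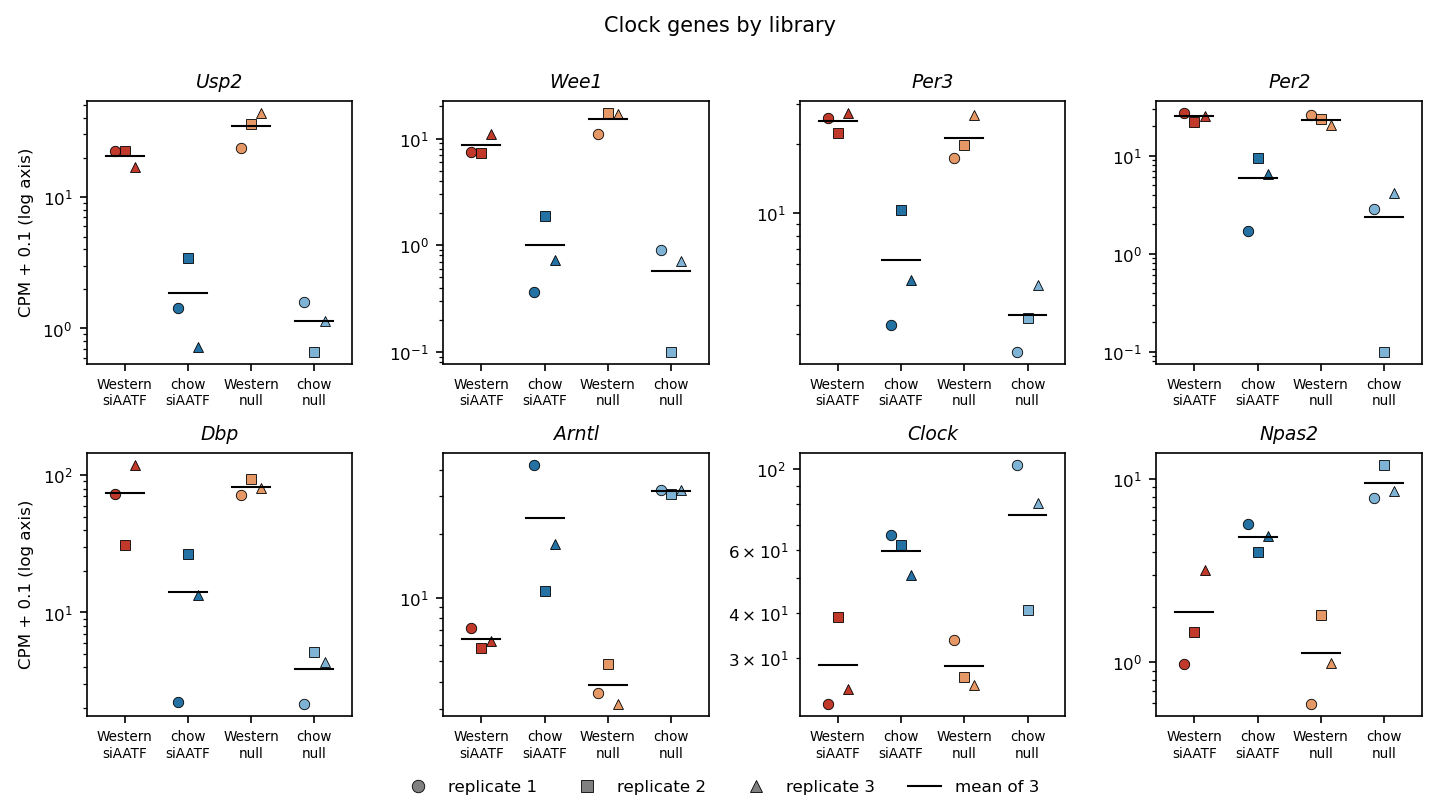
Levels as CPM plus 0.1 (log axis) of 8 clock genes in the 12 libraries, with 1 point per library, its shape giving the replicate, and a line at the mean of 3, grouped as Western siAATF, chow siAATF, Western null and chow null. Usp2, Wee1, Per3 and Per2 are higher, and Arntl is lower, in each Western siAATF library than in each chow siAATF library.

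Genes that are known to be expressed more in male than in female liver gave 4 falls and no rise among 23 tested, 18 of them with negative estimates. Hsd3b5 (chromosome 3, 98525952 to 98552850, minus strand), a steroid reductase of male mouse liver, was at 81.6, 75.3 and 30.4 CPM in Western siAATF livers and 187, 270.2 and 255 CPM in chow siAATF livers. Elovl3, an elongase of very long fatty acids, was at 6.19, 7.49 and 39.2 CPM in Western siAATF livers and 235, 263 and 266 CPM in chow siAATF livers. The groups were far apart for both, with log2 fold changes of -1.92 ± 0.36 for Hsd3b5 and -3.94 ± 0.66 for Elovl3 (edgeR adjusted p = 0.0145 for each). The call of Hsd3b5 was lost without chow siAATF library 2, and that of Elovl3 without chow siAATF library 2 or 3.

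Selenbp2, a selenium binding protein, was at 30.1, 14.5 and 98.6 CPM in Western siAATF livers and 146, 597 and 562 CPM in chow siAATF livers (-3.22 ± 0.68, edgeR adjusted p = 0.0424). Ugt2b38, a glucuronosyltransferase, was at 0.221, 0.908 and 0.440 CPM in Western siAATF livers and 9.0, 5.91 and 8.78 CPM in chow siAATF livers (-3.82 ± 0.84, edgeR adjusted p = 0.0322). Both have close paralogs, so the counting may have split their reads. Among the 6 fits, Selenbp2 was called without Western siAATF library 3 or chow siAATF library 1, and Ugt2b38 without Western siAATF library 3. The number of called male-biased genes was 10 without Western siAATF library 3, 5 without chow siAATF library 1 and 0 without chow siAATF library 2. The 10 tested female-biased genes all had positive estimates, with a median log2 fold change of 1.01, and edgeR called none. Unadjusted p fell under 0.05 for 4 of them, DESeq2 called 1 and limma-voom 0.

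Insulin, growth hormone and gluconeogenesis genes gave 3 falls among 21 tested. Irs1, the adaptor of the insulin receptor, was at 26.5, 32.0 and 40.5 CPM in Western siAATF livers and 67.5, 73.0 and 76.3 CPM in chow siAATF livers (-1.14 ± 0.21, edgeR adjusted p = 0.0145). Stat5b, which carries the growth hormone signal to male-biased genes, was at 59.9, 44.9 and 55.9 CPM in Western siAATF livers and 89.4, 104 and 100.3 CPM in chow siAATF livers (-0.87 ± 0.21, edgeR adjusted p = 0.0437). G6pc, the last enzyme of glucose output, was at 93.8, 75.6 and 245 CPM in Western siAATF livers and 463, 506 and 465 CPM in chow siAATF livers (-1.80 ± 0.37, edgeR adjusted p = 0.024). None of the 3 genes overlapped between groups. Without Western siAATF library 1, chow siAATF library 2 or chow siAATF library 3 in turn, none of the 3 was called, and Irs1 alone was called without chow siAATF library 1.

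The list of glutathione S-transferases and NRF2 targets gave 5 falls and 1 rise among 20 tested genes. The transferases, enzymes that conjugate glutathione to reactive compounds, are 13 of the 20 and hold all 5 falls. The other 7, such as Nqo1, Gclc and Txnrd1, are targets of the stress factor NRF2 or, as Nfe2l2, encode it, and they hold the rise. Gsta4 (chromosome 9, 78099248 to 78116631, plus strand), which clears the lipid peroxidation product hydroxynonenal, was at 6.41, 7.49 and 20.2 CPM in Western siAATF livers and 63.8, 41.8 and 41.6 CPM in chow siAATF livers. Gstm1, an abundant member, was at 187, 194 and 503 CPM in Western siAATF livers and 815, 999 and 812 CPM in chow siAATF livers. In both genes library 3 was the highest of the Western siAATF libraries and still below each chow siAATF library. The log2 fold changes were -2.18 ± 0.37 for Gsta4 (edgeR adjusted p = 0.00889) and -1.57 ± 0.33 for Gstm1 (edgeR adjusted p = 0.0283).

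Gstp1, of the pi class, was at 219, 270.3 and 118 CPM in Western siAATF livers and 469.6, 702 and 854 CPM in chow siAATF livers (-1.73 ± 0.34, edgeR adjusted p = 0.0174). Gstm3 was at 1.77, 3.63 and 0.880 CPM in Western siAATF livers and 7.67, 12.0 and 8.36 CPM in chow siAATF livers (-2.07 ± 0.44, edgeR adjusted p = 0.0291). Gstm6 was at 10.8, 11.6 and 20.7 CPM in Western siAATF livers and 39.7, 47.2 and 38.0 CPM in chow siAATF livers (-1.57 ± 0.29, edgeR adjusted p = 0.0136). The mu-class genes are close paralogs, so the counting may have split their reads. The calls of Gstm3 and Gstp1 were lost without Western siAATF library 1 or chow siAATF library 2 or 3, that of Gstm6 without Western siAATF library 1 or chow siAATF library 2, and that of Gstm1 without any compared library other than Western siAATF library 3. The falls in the list numbered 9 without Western siAATF library 3, 4 without Western siAATF library 2 or chow siAATF library 1, 2 without chow siAATF library 3, and 1 without Western siAATF library 1 or chow siAATF library 2. The rise was Hmox1, named after its values were seen, which breaks down heme. It was at 69.9, 55.8 and 11.4 CPM in Western siAATF livers and 14.3, 8.56 and 10.7 CPM in chow siAATF livers (2.08 ± 0.46, edgeR adjusted p = 0.0335), its groups overlap through Western siAATF library 3, and among the 6 fits it was called only without that library.

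Of 21 cytochromes P450 of drug metabolism and their regulators, 2 fell. Cyp2c29 was at 270.5, 441 and 388 CPM in Western siAATF livers and 845, 1091 and 719.6 CPM in chow siAATF livers (-1.27 ± 0.30, edgeR adjusted p = 0.0461). Cyp2b10, the classical target of the receptor CAR, had 0 counts in the 3 Western siAATF libraries and 79 counts over the 3 chow siAATF libraries, at 1.59, 3.57 and 3.14 CPM. Set against a floor of 3 counts over the group, it was at least 11.9-fold lower in Western siAATF livers (edgeR adjusted p = 0.0297). Among the 6 fits, Cyp2c29 was called without Western siAATF library 2 or 3 and Cyp2b10 without Western siAATF library 3 or chow siAATF library 1. The list gave 8 falls and 2 rises without Western siAATF library 3, and neither without chow siAATF library 2 or 3.

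Markers of lipid-associated macrophages, the cells that take up lipid in steatohepatitis, gave 3 rises among 17 tested, all 17 with positive estimates and a median log2 fold change of 1.42. In 8 of the 17 the groups did not overlap, all higher, against 9.24% of all tested genes. Cd63, a tetraspanin of lysosomes (chromosome 10, 128731577 to 128748691, plus strand), was at 8.62, 6.13 and 6.16 CPM in Western siAATF livers and 1.06, 1.17 and 1.88 CPM in chow siAATF livers (2.38 ± 0.34, edgeR adjusted p = 0.00318). It was also the 1 called gene of 21 lysosomal genes, and kept its call in each of the 6 fits without a library. In whole liver, more cells of a type and more RNA per cell cannot be told apart for this gene and those below.

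Trem2, the lipid receptor that marks these macrophages, was at 3.98, 1.59 and 1.76 CPM in Western siAATF livers and 0, 0.0616 and 0.627 CPM in chow siAATF livers (3.70 ± 0.74, edgeR adjusted p = 0.0217). Itgax, which encodes CD11c, was at 6.41, 7.94 and 2.20 CPM in Western siAATF livers and 0.794, 0.492 and 1.46 CPM in chow siAATF livers (2.79 ± 0.53, edgeR adjusted p = 0.0145). The groups stayed apart for both, although Trem2 rests on few reads. The Trem2 call was lost without Western siAATF library 1 or chow siAATF library 1 or 2, and the Itgax call without Western siAATF library 1 or chow siAATF library 2. Gpnmb, another marker of the same cells, did not pass at 0.885, 0.681 and 0.440 CPM in Western siAATF livers and 0.794, 0.185 and 0 CPM in chow siAATF livers (1.42 ± 0.79, edgeR adjusted p = 0.421). Spp1, which encodes osteopontin, did not pass either, at 18.6, 38.1 and 15.4 CPM in Western siAATF livers and 23.0, 13.5 and 12.3 CPM in chow siAATF livers (0.60 ± 0.44, edgeR adjusted p = 0.577). Trem2, Gpnmb, Cd9, Cd63, Mmp12 and Spp1 together summed to 48.7, 61.3 and 40.9 CPM in Western siAATF livers. The sums were 40.2, 24.6 and 26.5 CPM in chow siAATF livers, so the groups almost touched. Western null livers held 346, 236 and 325 CPM and chow null livers 28.1, 10.2 and 26.6 CPM.

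Of 13 Kupffer cell and macrophage genes, Mpeg1 rose, which encodes the pore-forming perforin-2. It was at 184, 222 and 77.9 CPM in Western siAATF livers and 45.5, 28.7 and 53.9 CPM in chow siAATF livers (1.93 ± 0.37, edgeR adjusted p = 0.0145), and the call was lost without Western siAATF library 1 or chow siAATF library 1 or 2. All 13 estimates were positive, and without Western siAATF library 3 there were 5 calls. The summed level of 5 Kupffer cell markers, of which Cd5l is at 0 throughout, was 425, 298 and 135 CPM in Western siAATF livers and 120, 62.1 and 134 CPM in chow siAATF livers. The 7 tested MHC class II genes also all had positive estimates, at a median of 1.03, with 4 at an unadjusted p under 0.05 and no call by edgeR, DESeq2 or limma-voom.

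Of 24 interferon response and MHC class I genes 2 rose, and 23 had positive estimates. Ifi44, an interferon-induced protein, was at 6.19, 7.04 and 3.08 CPM in Western siAATF livers and 0.529, 1.11 and 1.05 CPM in chow siAATF livers (2.53 ± 0.51, edgeR adjusted p = 0.0225). Psmb9, a subunit of the immunoproteasome, was at 15.5, 18.4 and 15.4 CPM in Western siAATF livers and 2.65, 7.08 and 7.52 CPM in chow siAATF livers (1.47 ± 0.34, edgeR adjusted p = 0.0406). Both were apart between groups and called only without Western siAATF library 3 among the 6 fits, where the list gave 6 rises.

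Extracellular matrix genes had 28 of 30 positive estimates and a median log2 fold change of 0.81, with no call by edgeR or limma-voom, 3 by DESeq2 and 13 at an unadjusted p under 0.05. Col1a1, the main chain of fibrillar collagen, was at 48.7, 11.6 and 123 CPM in Western siAATF livers and 17.7, 9.17 and 17.6 CPM in chow siAATF livers (2.05 ± 0.79, edgeR adjusted p = 0.254). Col3a1, another fibrillar collagen, was at 141, 56.3 and 278 CPM in Western siAATF livers and 81.8, 31.2 and 70.4 CPM in chow siAATF livers (1.38 ± 0.59, edgeR adjusted p = 0.291). The Western siAATF libraries differed among themselves more than 4-fold in both, and library 2 lay within the chow siAATF range. Acta2, a marker of activated stellate cells, was at 3.54, 0.227 and 1.76 CPM in Western siAATF livers and 2.91, 1.29 and 7.73 CPM in chow siAATF livers (-1.02 ± 0.78, edgeR adjusted p = 0.583). The stellate markers summed to 394, 246 and 327 CPM in Western siAATF livers and 247, 217 and 149 CPM in chow siAATF livers, with Lrat at 0. Of the 394 CPM in Western siAATF library 1, which holds the most muscle transcripts, 175 came from Des, also a muscle gene. Without Des the sums were 219, 241 and 324 CPM in Western siAATF livers and 242, 214 and 141 CPM in chow siAATF livers, so the groups overlap.

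Acute phase and iron handling genes gave 4 rises among 27 tested, with 22 positive estimates and a median log2 fold change of 1.71. Orm3, an acid glycoprotein of plasma, was at 55.1, 49.7 and 13.6 CPM in Western siAATF livers and 0.265, 1.11 and 4.18 CPM in chow siAATF livers (4.50 ± 0.69, edgeR adjusted p = 0.00742). Serpina3n, a protease inhibitor, was at 1393, 1215 and 354 CPM in Western siAATF livers and 208, 340.0 and 356 CPM in chow siAATF livers (1.71 ± 0.40, edgeR adjusted p = 0.0438). Western siAATF library 3 was above the chow siAATF libraries for Orm3 and within them for Serpina3n. Saa3, an inflammatory serum amyloid A, was at 24.8, 23.6 and 10.6 CPM in Western siAATF livers and 7.67, 2.59 and 6.27 CPM in chow siAATF livers (1.93 ± 0.41, edgeR adjusted p = 0.0283). Socs3, the feedback inhibitor of IL-6 signalling, was at 30.1, 13.8 and 4.84 CPM in Western siAATF livers and 5.03, 3.82 and 3.55 CPM in chow siAATF livers (2.03 ± 0.47, edgeR adjusted p = 0.0406).

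These counts rest on Western siAATF libraries 1 and 2. Among the 6 fits Orm3 lost its call without chow siAATF library 2 alone, Saa3 was called without Western siAATF library 3 or chow siAATF library 1, Socs3 without Western siAATF library 2 or 3, and Serpina3n without Western siAATF library 3. Without library 3, 17 of the 27 genes were called, all higher, while without library 1 there was 1, without library 2 there were 2, and without chow siAATF libraries 1, 2 and 3 in turn there were 2, 0 and 1. Saa1 and Saa2 were not called with all libraries (4.89 ± 1.43 and 6.43 ± 1.61, edgeR adjusted p = 0.15 and 0.0998) and were called without library 3 (5.44 and 6.97, edgeR adjusted p = 0.00361 and 0.00118). In the libraries with the empty vector Saa1 stood at 191, 145 and 284 CPM for Western null and 106, 71.7 and 65.2 CPM for chow null, below Western siAATF libraries 1 and 2 throughout.

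Neutrophil genes followed the same split. S100a9, a calcium-binding protein of neutrophils, was at 53.3, 88.5 and 1.76 CPM in Western siAATF livers and 0, 0.185 and 1.46 CPM in chow siAATF livers (6.71 ± 1.26, edgeR adjusted p = 0.0325). Its partner S100a8 had 180 counts over the 3 Western siAATF libraries, none of them in library 3, and 3 counts over the 3 chow siAATF libraries, a ratio of 133 after scaling (95% counting interval 44.8 to 650; edgeR adjusted p = 0.035). Prtn3, a protease of neutrophil granules, was at 44.2, 25.9 and 1.76 CPM in Western siAATF livers and 0.265, 0.0616 and 0.627 CPM in chow siAATF livers (6.65 ± 1.10, edgeR adjusted p = 0.0134). These intervals cover counting error only. Of the 6 tested members of the monocyte, neutrophil and lymphocyte list 2 were called, S100a8 and S100a9. Without Western siAATF library 3 all 6 were, and without any 1 of the other 5 compared libraries none was. Prtn3 lost its call without chow siAATF library 2. The neutrophil markers summed to 74.5, 112 and 2.20 CPM in Western siAATF livers and 0, 0.185 and 2.09 CPM in chow siAATF livers, and their part in the acute phase result was not tested.

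The other genes with the largest changes belong to no list in common. Ly6d (chromosome 15, 74633905 to 74635416, minus strand), a surface protein of the Ly6 family, was at 4.64, 5.67 and 15.0 CPM in Western siAATF livers and 0, 0.123 and 0.418 CPM in chow siAATF livers (5.43 ± 0.70, edgeR adjusted p = 0.00148). Rad51b, which takes part in homologous recombination, was at 62.8, 118 and 62.5 CPM in Western siAATF livers and 9.79, 4.68 and 9.82 CPM in chow siAATF livers (3.38 ± 0.52, edgeR adjusted p = 0.00742). Both were far apart between groups and stayed called in each of the 6 fits. Igdcc4, an immunoglobulin superfamily protein, was at 11.7, 8.17 and 1.76 CPM in Western siAATF livers and 0.265, 0.246 and 0.209 CPM in chow siAATF livers (4.84 ± 0.79, edgeR adjusted p = 0.00742). Crybg2 (3.34 ± 0.72, edgeR adjusted p = 0.0303) and the crystallin Crybb3 (3.25 ± 0.72, edgeR adjusted p = 0.0323) rose as well, with levels of at most 15.0 and 7.30 CPM in Western siAATF livers. Slc13a1, a sulfate transporter, had 69 counts over the Western siAATF libraries and 1 count over the chow siAATF libraries, a ratio of 153 with a wide 95% counting interval of 26.5 to 6123. The calls of Igdcc4, Crybg2, Crybb3 and Slc13a1 were lost without at least 1 compared library, chow siAATF library 2 in each case.

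Among the largest falls, Etnppl (chromosome 3, 130411097 to 130429399, plus strand), which breaks down phosphoethanolamine, was at 11.7, 11.8 and 13.6 CPM in Western siAATF livers and 224, 106 and 59.4 CPM in chow siAATF livers (-3.39 ± 0.40, edgeR adjusted p = 0.000795). Slco2a1, a prostaglandin transporter named after its values were seen for its place beside Apoa4 and Etnppl, was at 28.7, 21.6 and 10.1 CPM in Western siAATF livers and 99.5, 130.4 and 113 CPM in chow siAATF livers (-2.48 ± 0.29, edgeR adjusted p = 0.000795). These 2 genes and Apoa4 shared the lowest adjusted p of the comparison. Pitx3, a homeobox factor, had 3 counts over the Western siAATF libraries and 332 over the chow siAATF libraries, a level 50.0 times lower in Western siAATF after scaling (95% counting interval 16.9 to 244; edgeR adjusted p = 0.0027). Pitx3 overlaps the end of Elovl3 on the other strand, and the counting did not separate strands. Genes inside another gene are all at 0, so reads on the shared stretch appear to count for neither gene. Whether the counts of Pitx3 outside that stretch come from Elovl3 transcripts was not tested.

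Wnk4, a kinase of ion transport, was at 1.33, 0.681 and 2.20 CPM in Western siAATF livers and 10.3, 7.14 and 10.5 CPM in chow siAATF livers (-2.81 ± 0.46, edgeR adjusted p = 0.00734). Slco1a4, a hepatocyte uptake carrier of organic anions, was at 6.63, 6.13 and 1.76 CPM in Western siAATF livers and 86.0, 20.7 and 31.6 CPM in chow siAATF livers (-3.14 ± 0.54, edgeR adjusted p = 0.0134), and lost its call without Western siAATF library 2. Cdh1 (chromosome 8, 107329982 to 107396879, plus strand), the epithelial cadherin and a periportal gene in liver, was at 13.9, 14.5 and 12.8 CPM in Western siAATF livers and 68.3, 49.6 and 51.2 CPM in chow siAATF livers (-2.03 ± 0.30, edgeR adjusted p = 0.00367). It was the 1 called gene of 19 in the periportal list and was called in each of the 6 fits, as was Wnk4. Clec2h, a C-type lectin (-3.42 ± 0.64, edgeR adjusted p = 0.0145), Adgrf1, an adhesion receptor (-3.28 ± 0.66, edgeR adjusted p = 0.0214), and Olig1, a helix-loop-helix factor (-3.19 ± 0.76, edgeR adjusted p = 0.0451), also fell, to at most 1.82 CPM in Western siAATF livers. Each of these 3 lost its call without Western siAATF library 1, among others.

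Of the called genes with the highest counts, Rpph1, the RNA of RNase P, was at 22686, 11479 and 24646 CPM in Western siAATF livers and 4567, 4013 and 6093 CPM in chow siAATF livers (2.00 ± 0.36, edgeR adjusted p = 0.0134). Rmrp, the RNA of the related enzyme RNase MRP, was at 1040.0, 631 and 1079 CPM in Western siAATF livers and 210.3, 267 and 263 CPM in chow siAATF livers (1.89 ± 0.35, edgeR adjusted p = 0.0134). Alas1, the first enzyme of heme synthesis, was at 812, 866 and 632 CPM in Western siAATF livers and 407, 254 and 251 CPM in chow siAATF livers (1.34 ± 0.30, edgeR adjusted p = 0.0326). For these 3 genes no Western siAATF library fell within the chow siAATF range. Camk2b, a calcium-dependent kinase, rose by a like amount (1.34 ± 0.29, edgeR adjusted p = 0.0308), as did Ccng1, cyclin G1, by 1.02 ± 0.22 (edgeR adjusted p = 0.0323), the 1 called gene of 18 p53 targets. Cdkn1a, the p53 target p21, did not pass at 3.76, 1.13 and 9.68 CPM in Western siAATF livers and 7.67, 2.71 and 7.32 CPM in chow siAATF livers (-0.34 ± 0.67, edgeR adjusted p = 0.863). The hormone gene Fgf21 did not pass either (-1.23 ± 1.06, edgeR adjusted p = 0.648). Ccl2 and Tnf had too few counts to be tested. Timp1 lies inside another gene, where the counting leaves all genes at 0, so its level is not known here.

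Abundant genes that fell were enzymes. Aox3, a hepatic aldehyde oxidase, was at 220.5, 361 and 242 CPM in Western siAATF livers and 866, 1164 and 734 CPM in chow siAATF livers (-1.75 ± 0.28, edgeR adjusted p = 0.00512). Cyb5b, the cytochrome b5 of the outer mitochondrial membrane, was at 157, 151 and 156 CPM in Western siAATF livers and 300.0, 481 and 327 CPM in chow siAATF livers (-1.26 ± 0.23, edgeR adjusted p = 0.0134). The Western siAATF values of Cyb5b lie within a few CPM of each other. Of the abundant genes above, Aox3 kept its call in each of the 6 fits, Rpph1 and Cyb5b lost it without chow siAATF library 2 only, Rmrp lost it without any 1 of the chow siAATF libraries, Camk2b and Ccng1 without these or Western siAATF library 1, and Alas1 without Western siAATF library 1 or 2 or chow siAATF library 2 or 3. The span of Aox3 is overlapped over 26.5% by Gm39643.

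Of the 33 gene lists 19 held at least 1 called gene and 14 held none under edgeR. None of these 14 had a call by limma-voom, and 5 had none by DESeq2. Beside those described, the lists without a call were liver endothelium, cholangiocytes, hepatocyte secreted proteins, sugar handling, cell cycle, endoplasmic reticulum stress, pericentral genes, and Aatf partners with ribosome biogenesis. In the last, 2 of 20 genes had an unadjusted p under 0.05, both higher, DESeq2 and limma-voom called 0, and the median log2 fold change was 0.25. Hepatocyte secreted proteins had 16 of 23 negative estimates and a median of -0.22, with 7 lower at an unadjusted p under 0.05 and 4 lower by DESeq2. Endoplasmic reticulum stress genes had 6 calls, all higher, without Western siAATF library 3.

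**Figure D4:**
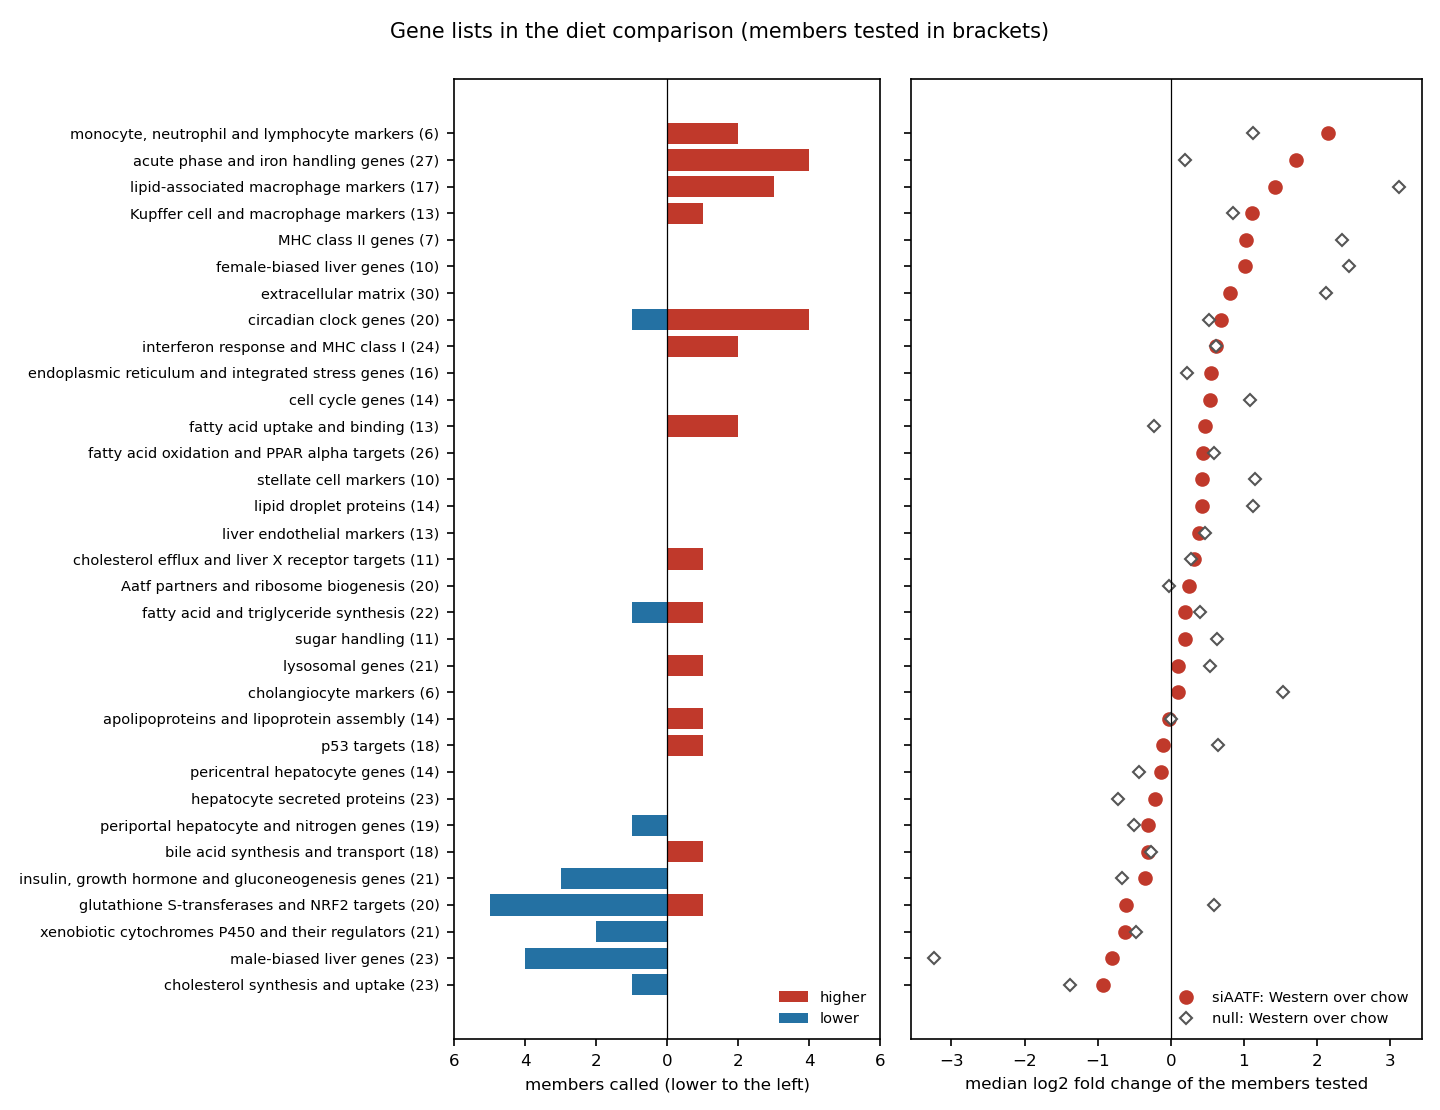
Left, the number of called members of each of 33 gene lists, lower in Western siAATF to the left of 0 and higher to the right, with the number tested in brackets. Right, the median log2 fold change of the members tested for Western siAATF over chow siAATF and for Western null over chow null; acute phase genes lie at 1.71 and 0.20, male-biased genes at -0.80 and -3.24.

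The diet contrast under the empty vector, Western null against chow null, shares no library with the one above. It called 1577 genes (13.2%), of which 769 rose (6.44%) and 808 fell (6.77%). Of the 177 genes called under siAATF, 118 were called under the empty vector, in either direction. These 118 are 66.7% of the siAATF calls and 7.48% of the null calls, and 115 of them changed in the same direction. The sign was the same for 162 of the 177 (91.5%) and for 1430 of the 1577 (90.7%), against 67.6% of all tested genes. The median absolute log2 fold change of the 1577 genes was 0.58 under siAATF and 1.44 under the empty vector, and that of the 177 genes was 1.86 under siAATF and 1.42 under the empty vector. Each of these medians is larger in the contrast that chose the genes.

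The difference between the 2 diet contrasts was tested as the interaction of diet and vector, which called 23 genes (0.193%), 12 higher (0.101%) and 11 lower (0.0922%), with 1093 at an unadjusted p under 0.05. In 20 of the 23 the diet difference was smaller in size under siAATF. Without Western siAATF library 3 the interaction called 295 genes, and without any other 1 of the 12 libraries it called between 2 (without chow null library 3) and 25. Of the 14 interaction genes that are named, 12 lost the call without chow null library 3, and Gstm3 and Hsd3b5 kept it without any 1 library. With 1 library left out at a time, Gsta4 lost it in 10 of the 12 fits, Cadm4 in 9, Gpnmb and Sult2a8 in 8, Tubb2a in 7, Acpp in 6, Mgst3 in 5, Anxa5 in 4, Grm8 and Gm39583 in 3, and Apoa4 and Haus8 in 1. Hsd3b5 had the lowest adjusted p: its log2 fold change was -1.92 under siAATF and -8.40 under the empty vector, a difference of 6.48 ± 0.66 (edgeR adjusted p = 0.000278). Western null livers held 0, 1.70 and 0.449 CPM of it and chow null livers 258, 230.4 and 197 CPM. A floor of 3 counts is 0.269 to 1.48 CPM in Western null libraries. The size of the fall under the empty vector is therefore uncertain and depends on the prior count. Apoa4 rose under both vectors, by 2.84 under siAATF and 5.92 under the empty vector (difference -3.08 ± 0.45, edgeR adjusted p = 0.00837), with Western null livers at 10263, 6883 and 8276 CPM and chow null livers at 99.8, 203 and 119 CPM.

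Gpnmb reached 43.0, 48.0 and 51.9 CPM in Western null livers, against 0.457, 0 and 0.0871 CPM in chow null livers, and differed between the contrasts by -6.17 ± 1.15 (edgeR adjusted p = 0.0396). In Western siAATF, chow siAATF and chow null livers Gpnmb lay near the floor of 3 counts or below it. The size of its difference is therefore uncertain and depends on the prior count. The lipid-associated macrophage list as a whole had a median of 1.42 under siAATF, with 3 rises, and of 3.12 under the empty vector, with 13 rises, and 3 of its 17 genes were called in the interaction. Extracellular matrix genes had a median of 0.81 with no call under siAATF and of 2.12 with 24 rises under the empty vector, and no member was called in the interaction. Anxa5, a phospholipid-binding annexin, was at 61.3, 69.0 and 94.6 CPM in Western siAATF livers and 61.6, 52.7 and 51.6 CPM in chow siAATF livers (0.43 ± 0.24, edgeR adjusted p = 0.423), and its difference between contrasts was -2.15 ± 0.35 (edgeR adjusted p = 0.0182).

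Gstm3, a mu-class glutathione S-transferase, was called with opposite signs under the 2 vectors. It fell under siAATF (-2.07) and rose under the empty vector (2.32), where it was at 45.9, 39.5 and 68.4 CPM in Western null livers and 11.3, 5.08 and 12.7 CPM in chow null livers (difference -4.39 ± 0.56, edgeR adjusted p = 0.00363). Gsta4 had -2.18 under siAATF and 0.48 under the empty vector (difference -2.66 ± 0.50, edgeR adjusted p = 0.0396), and Mgst3, a microsomal transferase, had -0.96 and 1.77 (difference -2.73 ± 0.44, edgeR adjusted p = 0.0182). Gstm1 had -1.57 and 0.57, a difference that did not pass (-2.14 ± 0.46, edgeR adjusted p = 0.0784). The 13 tested transferases, separated from the list after values were seen, had a median of -1.57 under siAATF, with 5 falls and no rise, and of 0.60 under the empty vector, with 1 fall and 4 rises. The other 7 genes of the list had a median of 0.14 under siAATF, with 1 rise, and of 0.48 under the empty vector, with 2 rises.

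Tubb2a, a beta tubulin, fell under siAATF (-1.55 ± 0.33, edgeR adjusted p = 0.0303) and rose under the empty vector (1.22 ± 0.32, edgeR adjusted p = 0.0197), with a called difference of -2.77 ± 0.46 (edgeR adjusted p = 0.0211). Acpp, an acid phosphatase, did the reverse, at 17.5, 20.2 and 6.16 CPM in Western siAATF livers and 1.32, 5.48 and 4.39 CPM in chow siAATF livers (1.91 ± 0.46 under siAATF, -2.15 ± 0.54 under the empty vector; difference 4.06 ± 0.70, edgeR adjusted p = 0.0264). Sall1, a zinc finger factor, fell under siAATF (-1.26 ± 0.27, edgeR adjusted p = 0.0303) and had 0.07 under the empty vector, a difference that did not pass (edgeR adjusted p = 0.211). The siAATF calls of Tubb2a, Acpp and Sall1 were made only without Western siAATF library 3 among the 6 fits. Of the 59 genes called under siAATF and not under the empty vector, 2 were called in the interaction, so for the rest a difference between the vectors was not shown.

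**Figure D5:**
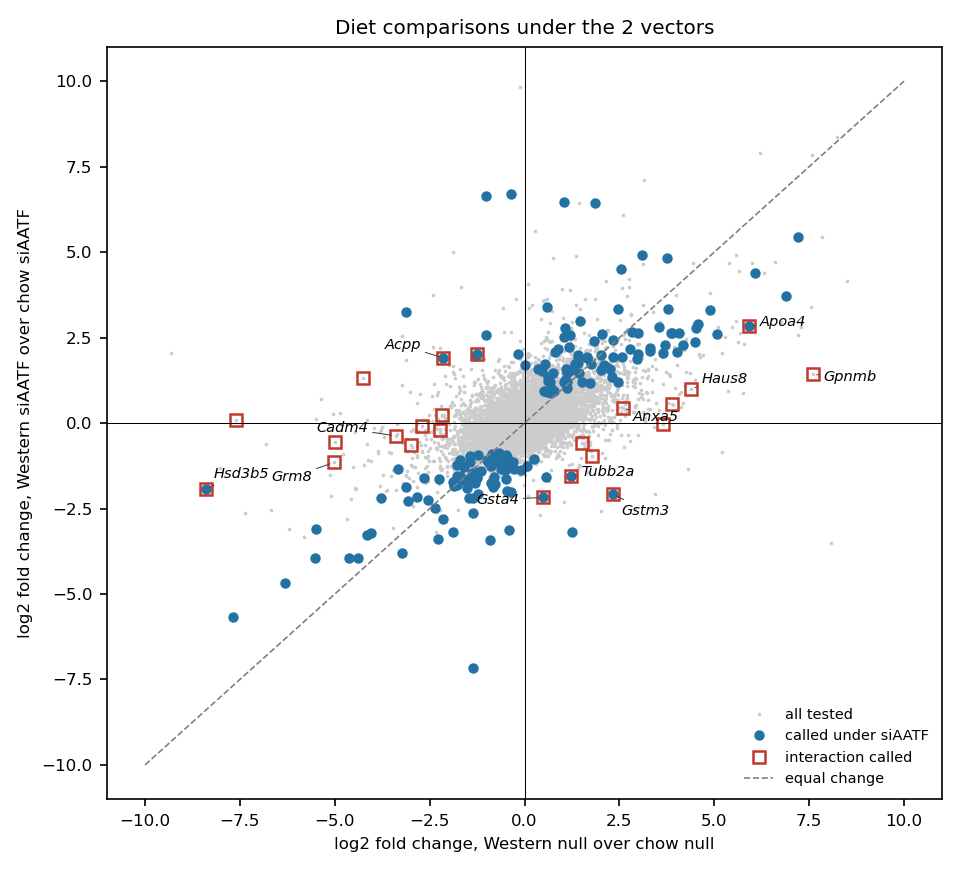
Log2 fold change of the diet contrast under the empty vector (horizontal) against that under siAATF (vertical), 1 point per tested gene, with genes called under siAATF in blue, those called in the interaction in red squares, some named, and a dashed line where the changes are equal. Of the 177 genes called under siAATF, 162 have the same sign under both vectors, while Gstm3 lies at -2.07 under siAATF and 2.32 under the empty vector.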

How the data were processed

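RNA of whole liver was sequenced in 12 libraries, 3 per group. The deposited values are raw counts of reads per gene that the authors made; per the submitters' processing notes STAR 2.7.11, featureCounts 2.0.1, DESeq2 1.42.0, R 4.3.2 and the build GRCm39 were used. In the deposited table each gene's length is its whole span, so introns were counted, and the 10408 genes that lie inside another gene are all at 0. Of the tested genes 46.8% overlap another gene, and reads on both could not be assigned by strand. The table lists 50499 genes, 28210 of them at 0 in all 12 libraries.

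From the counts, genes were kept by edgeR's filterByExpr, scaled by TMM, and fitted with a mean per group over all 12 libraries (edgeR 4.0.16, R 4.3.3, robust quasi-likelihood test, 8 residual degrees of freedom, adjusted p under 0.05). Standard errors are the log2 fold change over the root of F. Promoter windows and their build come from the RefSeq tables. DESeq2 1.42.0 and limma 3.58.1 (voom) served as alternatives. The script was tested on simulated counts. No pair of replicates was as alike as sampling noise would make it (the lowest chi-square over its degrees of freedom was 4.92).

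The members and the gene lists were chosen with earlier results of these data known. Genes were named by a rule: Aatf, the 10 called genes with the largest rise and the 10 with the largest fall (predicted models and overlapping libraries left out, and 5 CPM or more on average where higher), the 6 most abundant called genes each way, up to 5 called members per list, 20 genes known in steatohepatitis, up to 12 interaction genes, and up to 6 called genes of opposite sign under the null vector. The replicate numbers shared by the groups were not used as pairs. Deviations from the group means of same-numbered Western siAATF and chow siAATF libraries correlated at -0.10, -0.15 and 0.03. Those of different-numbered libraries correlated at -0.24 to 0.31. With 3 libraries per group these values can neither show nor exclude a pairing.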

Additional observations from a re-analysis of the deposited data

Results flagged for a closer look

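For 14 named genes, of the 23 called in the interaction, the diet difference under siAATF and that under the empty vector were themselves told apart by the interaction test of edgeR, at an adjusted p under 0.05. Of the 14 calls, 13 were lost in at least 1 of 21 alternatives, from 1 for Hsd3b5 to 13 for Gsta4 and Cadm4, and that of Gstm3 was kept in all 21. Hsd3b5 lost its call only without the libraries with over 25% 18S RNA, a fit that keeps 1 chow null library. Those described above are Hsd3b5 (6.48, siAATF diet difference minus null diet difference, log2), Gpnmb (-6.17), Gstm3 (-4.39), Acpp (4.06), Apoa4 (-3.08), Tubb2a (-2.77), Mgst3 (-2.73), Gsta4 (-2.66) and Anxa5 (-2.15). The sizes for Hsd3b5 and Gpnmb rest on groups near the floor of 3 counts.

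Haus8, a subunit of the augmin complex of the spindle, had 7.74, 5.22 and 5.28 CPM in Western siAATF livers, against 2.12, 3.45 and 3.34 CPM in chow siAATF livers. In the other livers it had 40.5, 33.1 and 34.2 CPM in Western null and 1.83, 2.26 and 1.39 CPM in chow null, and the contrasts differed by -3.38 ± 0.46 (edgeR adjusted p = 0.00476). The estimates were 1.00 under siAATF, which did not pass the test, and 4.39 under the empty vector, which did.

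Grm8, a glutamate receptor, had 11.5, 14.3 and 9.68 CPM in Western siAATF livers and 42.1, 15.8 and 23.2 CPM in chow siAATF livers, against 0.987, 1.70 and 0.539 CPM in Western null and 28.5, 22.0 and 36.0 CPM in chow null (difference 3.87 ± 0.63, edgeR adjusted p = 0.0182). Cadm4, a cell adhesion molecule, had 11.1, 10.2 and 6.16 CPM in Western siAATF livers and 10.1, 14.0 and 11.9 CPM in chow siAATF livers, against 0.494, 0.681 and 1.26 CPM in Western null and 11, 11.9 and 9.05 CPM in chow null (3.01 ± 0.52, edgeR adjusted p = 0.0264). For both genes the 3 Western null libraries were the lowest of the 12.

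Sult2a8, a sulfotransferase of mouse liver, had 355, 676 and 390.4 CPM in Western siAATF livers and 404, 417 and 394 CPM in chow siAATF livers, against 119, 121 and 105 CPM in Western null and 737, 330.3 and 478 CPM in chow null (2.39 ± 0.43, edgeR adjusted p = 0.0336). The predicted gene Gm39583 had 4.20, 5.67 and 0.440 CPM in Western siAATF livers and 3.44, 4.74 and 1.88 CPM in chow siAATF livers, against 0, 0 and 0.0898 CPM in Western null and 14.4, 7.91 and 23.1 CPM in chow null. Its difference of 7.69 (edgeR adjusted p = 0.0107) is fitted against a group with almost no reads and depends on the prior count.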

How the results depend on the processing

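The 177 calls of Western siAATF against chow siAATF became 186 with DESeq2 size factors, 205 with limma-voom, 173 without the 18S gene and 179 with a correction for gene span, 513 with DESeq2 (34 adjusted p-values not given), 836 with no low-count filter (66.7% of them higher, against 51.4%), 17 with the siAATF libraries fitted alone, 103 without the libraries with over 25% 18S RNA, 98 with counts thinned to equal depth and 38 against a minimum fold of 1.5. With the replicate number as a replicate block, 71 were called, all among the 177, although a pairing by number was neither shown nor excluded. Leaving out 1 library gave 34 to 737. The null diet calls, 1577, became 1031 without the 18S-rich libraries and 658 to 2250 without 1 library. The interaction, 23, became 124 with DESeq2, 331 with no filter, 14 with the replicate block, 3 without the 18S-rich libraries, 6 when thinned and 2 to 295 without 1 library. Of 64 named called genes, 7 were called in every alternative (Apoa4, Cdh1, Etnppl, Ly6d, Pitx3, Rad51b and Usp2) and 0 turned direction. Of 20 named genes not called, 6 were called in some alternative. The estimate of Plin2 turned, at -1.63 without Western siAATF library 3, with a range up to 0.79 over the other leave-one-out fits. The log2 fold change of Aatf lay between -0.56 and -0.22 in all alternatives and was never called. The causes of these shifts were not tested. The fits that leave out a null library were chosen after seeing the data. A floor of 3 counts corresponds to 0.663 to 1.32 CPM in Western siAATF libraries and 0.185 to 0.794 CPM in chow siAATF libraries, so differences below those levels were not detectable at this depth.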

Other observations

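The 3 gene groups below are not among the lists but may share genes with them. They were put together after the values had been seen, so their counts are a description. Of 78 cytosolic ribosomal protein genes, 75 had positive estimates and 9 rose in Western siAATF livers, with a median log2 fold change of 0.55 under siAATF and 0.52 under the empty vector, where 10 rose. Their summed level was 12559, 11322 and 10293 CPM in Western siAATF livers, against 7948, 7373 and 7903 CPM in chow siAATF livers, so the groups did not overlap.

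Of 10 structured RNAs such as Rpph1 and Rmrp, all had positive estimates and 3 rose, at a median of 1.17 under siAATF and 1.46 under the empty vector. They summed to 37330.0, 29060 and 33886 CPM in Western siAATF livers and 14512, 10872 and 12573 CPM in chow siAATF livers.

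Of 11 neutrophil and myeloid granule genes 5 rose, and all 11 had positive estimates. The sum stood at 904, 869 and 36.1 CPM in Western siAATF livers and 18.5, 19.3 and 93.8 CPM in chow siAATF livers, against 151, 182 and 147 CPM in Western null livers and 46.4, 35.0 and 48.8 CPM in chow null livers. Western siAATF libraries 1 and 2 were therefore the highest of all 12, and library 3 lay below every Western null library. The neutrophil markers S100a8, S100a9 and Retnlg alone summed to 2.47, 5.45 and 1.80 CPM in Western null livers. In chow null livers they summed to 2.40, 2.26 and 3.57 CPM, so the null groups overlap for these markers.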
